A study of Mus musculus with 34 samples.

Results

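The 8 genes described here make, copy, oxidise and remove DNA methylation: the methyltransferases Dnmt1, Dnmt3a and Dnmt3b, the oxidases Tet1, Tet2 and Tet3, the adaptor Uhrf1 and the glycosylase Tdg. They were taken by symbol from 2 count tables of mouse bone marrow-derived macrophages (BMDM), and all 8 were present in both, among 52550 genes in the table of the main set and 25498 genes in the table of batch 1. All 8 passed the filter on low counts in both sets. In batch 1, Tet1 had 0 to 4 counts in each WT library and 1 to 13 in each Tet2KO library, and it passed only through the Tet2KO group.

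The study asked how mutations that drive clonal haematopoiesis alter the response of macrophages to low-density lipoprotein (LDL). Every mouse carried Vav-Cre, a recombinase expressed in the blood-forming lineage: WT (Vav-Cre alone), Dnmt3aKO (Dnmt3afl/fl), Tet2KO (Tet2fl/fl) and Jak2VF (Jak2V617F/WT), at 10 to 14 weeks of age. Marrow cells were grown for 6 days in 10 ng/ml M-CSF, replated, left to rest for 24 h and then kept for a further 24 h with LDL at 200 mg/dL or with vehicle. The main set had 24 libraries, 3 in each of 8 groups, and batch 1 had 10 libraries, 3 with vehicle and 2 with LDL for each of WT and Tet2KO. Nothing in the labels ties libraries to single mice, so p-values measure only the spread between these libraries, which may be technical. The floxed alleles remove part of a gene, and counts over a whole gene do not show which exons were read.

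In GRCm38 with GENCODE vM21, Dnmt1 lies at chr9:20907209-20959888 (minus strand), Dnmt3a at chr12:3806007-3914443 (plus), Dnmt3b at chr2:153649450-153687730 (plus) and Uhrf1 at chr17:56303321-56323486 (plus). Tet1 lies at chr10:62804570-62908996, Tet2 at chr3:133463679-133545139 and Tet3 at chr6:83362373-83459084, all on the minus strand, and Tdg at chr10:82629828-82650799 (plus). Values are 1 count per gene and library and do not separate transcripts or exons.

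Dnmt1 copies methyl groups onto the new strand after DNA replication, and Uhrf1 binds hemimethylated sites and brings Dnmt1 to them. Dnmt3a and Dnmt3b add methyl groups at unmethylated sites. Tet1, Tet2 and Tet3 oxidise 5-methylcytosine with the help of 2-oxoglutarate and iron, and Tdg cuts out the most oxidised forms so that base excision repair can restore cytosine. Loss of DNMT3A or TET2 in blood stem cells is a frequent cause of clonal haematopoiesis.

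The main set had 24105237 to 43904761 counts per library, and batch 1 had 15171143 to 44449473. Levels are given as CPM, counts scaled to 1 fixed library total after adjustment by trimmed mean of M values, and changes as log2 fold changes with their standard errors (SE). A gene was called where the adjusted p of edgeR's quasi-likelihood test was under 0.05. All 10 macrophage markers had counts in all 34 libraries, with summed levels of 19507 to 34922 CPM. The 8 stromal markers, led by collagens, summed to 9002 to 18750 CPM in the main set and to 494 to 3877 CPM in batch 1. In such bulk samples fewer cells of a type and less RNA per cell cannot be told apart. The libraries WT LDL 3 and Tet2KO LDL 3 had 2.72 and 4.26 CPM of Gfap, a glial gene, against at most 0.71 CPM in the other libraries, and results were recomputed without both. The 6 brain markers summed to 93.7 to 105 CPM in WT with LDL and to 103 to 122 CPM in Tet2KO with LDL. They summed to 83.1 to 92.2 CPM in WT, 93.4 to 108 CPM in Dnmt3aKO and 98.7 to 109 CPM in Tet2KO with vehicle. The source of the Gfap counts was not tested.

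Per kilobase of exon sequence, the order of the members in the main set ran from Dnmt1, with a median of 20.8 CPM per kb over the 24 libraries (14.99 to 28.4), through Uhrf1 at 14.4 (8.13 to 23.1) and Tdg at 7.31 (5.21 to 9.35). Tet3 followed at 4.16 CPM per kb (2.37 to 5.31) and Dnmt3a at 3.11 (1.66 to 4.28), and the ranges of these neighbours overlapped. Tet2 was at 1.82 CPM per kb (0.764 to 2.51). Dnmt3b, at 0.317 CPM per kb (0.205 to 0.425), and Tet1, at 0.0444 (0.0170 to 0.132), lay apart from the rest and from each other. These are levels of the whole culture, and which cells held each message was not tested. In batch 1, which was normalised separately, Dnmt3a had a median of 10.2 CPM per kb (6.07 to 18.7) and ranked second after Dnmt1, while Uhrf1 (2.95 to 7.93) and Tdg (1.26 to 4.26) were lower than in the main set.

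**Figure D1:**
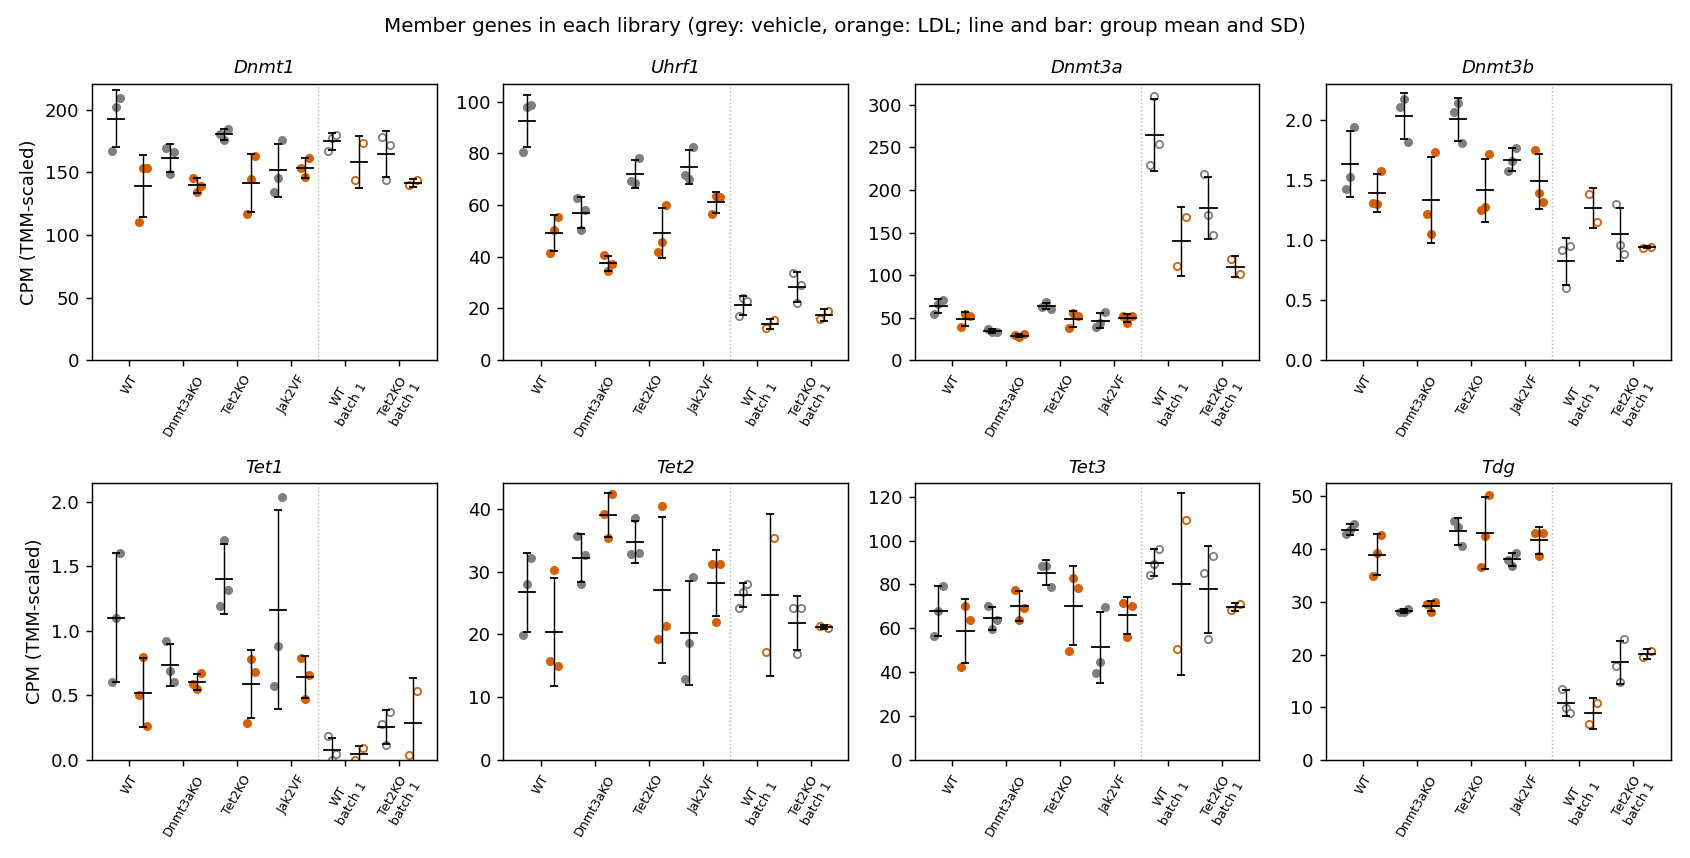
Level of each member gene in every library, in CPM (vertical axes start at 0); grey points are vehicle and orange points LDL, closed for the main set and open for batch 1, with the group mean as a line and the SD as a bar, cut off at 0. Uhrf1 is lower with LDL in every pair of groups without overlap, Dnmt3a is lowest in Dnmt3aKO, and the points of Tet2 and Tet3 spread widely within several groups.

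LDL was followed by lower levels of the maintenance pair in WT. Uhrf1 stood at 80.7, 97.8 and 98.5 CPM in the WT vehicle libraries and at 41.5, 50.5 and 55.5 CPM in the WT LDL libraries. The groups did not overlap, and Uhrf1 fell 1.88-fold (log2 fold change -0.91 ± 0.13 SE, adjusted p = 2.91e-05). In Dnmt3aKO, Uhrf1 was at 62.6, 50.5 and 58.1 CPM with vehicle and at 40.5, 34.6 and 37.4 CPM with LDL, a fall of -0.61 ± 0.13 (adjusted p = 0.00213). In Tet2KO it was at 69.5, 68.6 and 78.2 CPM with vehicle and at 41.7, 45.7 and 60.1 CPM with LDL, a fall of -0.55 ± 0.13 (adjusted p = 0.00469). The Tet2KO call ended when only the compared groups were fitted (adjusted p = 0.0512). In Jak2VF the values were 71.4, 70.2 and 82.3 CPM with vehicle and 56.5, 63.6 and 63.1 CPM with LDL, which did not overlap but did not pass the test (-0.29 ± 0.13, adjusted p = 0.123).

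Dnmt1 was at 167, 202 and 209 CPM in WT with vehicle and at 111, 153 and 154 CPM with LDL. It fell by 0.47 ± 0.13 on the log2 scale (adjusted p = 0.0152), with no overlap of the groups. The call ended without WT LDL 1, the lowest library, where the difference was -0.32 ± 0.13 (adjusted p = 0.117), without WT vehicle 2 (adjusted p = 0.0712), without WT vehicle 3 (adjusted p = 0.0837) and with only the compared groups fitted (adjusted p = 0.144). In Dnmt3aKO (134 to 145 CPM with LDL against 148 to 169 with vehicle) and in Tet2KO (117 to 163 against 176 to 184) Dnmt1 was lower in each LDL library than in any vehicle library, but neither difference passed the test (adjusted p = 0.331 and 0.0674). In Jak2VF the Dnmt1 levels with LDL (146 to 161 CPM) lay within the range of the vehicle libraries (134 to 175 CPM).

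Averaged over the 4 genotypes, 5 of the 8 members fell with LDL and 0 rose; 18.5% of all 19444 genes tested were called lower in this average and 34.5% in either direction. Uhrf1 (-0.59 ± 0.06, adjusted p = 2.13e-07), Dnmt1 (-0.25 ± 0.06, adjusted p = 0.00363), Dnmt3a (-0.23 ± 0.07, adjusted p = 0.0188), Dnmt3b (-0.38 ± 0.09, adjusted p = 0.00318) and Tet1 (-0.86 ± 0.23, adjusted p = 0.00459) were the members that fell. The median over all 8 members was -0.24, beside -0.01 over all genes tested. All 5 calls held in each of the 31 other settings and left-out libraries tried. Within genotypes, 2 members fell in WT (Uhrf1, Dnmt1), 2 in Dnmt3aKO (Uhrf1, Dnmt3b), 1 in Tet2KO (Uhrf1) and 0 in Jak2VF. For LDL in Jak2VF, 1 member had an unadjusted p under 0.05, beside 6430 of all 19444 genes, and DESeq2 called 0 members. Summed stromal markers were lower with LDL without overlap in Dnmt3aKO (9002 to 10092 against 12567 to 13127 CPM), in Tet2KO (9429 to 11652 against 12790 to 15410 CPM) and in Jak2VF (13002 to 13854 against 14883 to 18750 CPM), and overlapped in WT (10529 to 12668 against 12509 to 13483 CPM). The 9 T and NK cell markers were lower without overlap in all 4 genotypes, at 15.5 to 19.4 against 28.8 to 30.2 CPM in WT and at 6.05 to 7.59 against 18.9 to 21.3 CPM in Jak2VF. Other lists went up without overlap in all 4 genotypes. The 6 megakaryocyte markers were at 1384 to 2098 against 598 to 906 CPM in WT. The 7 mast cell and basophil markers were at 12.98 to 15.2 against 8.55 to 10.3 CPM in WT. The macrophage gene Adgre1 was lower in the LDL average (-0.60 ± 0.03, adjusted p = 3.11e-12 by edgeR), and Csf1r was not called there (-0.06 ± 0.03, adjusted p = 0.185). The part of these markers in the falls of the members was not tested. In WT, Dnmt3aKO, Tet2KO and Jak2VF, the shares of all genes called with LDL were 14.2%, 15.4%, 16.8% and 18.2%. The shares called lower were 7.58%, 8.96%, 8.21% and 9.72% in the same order.

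**Figure D2:**
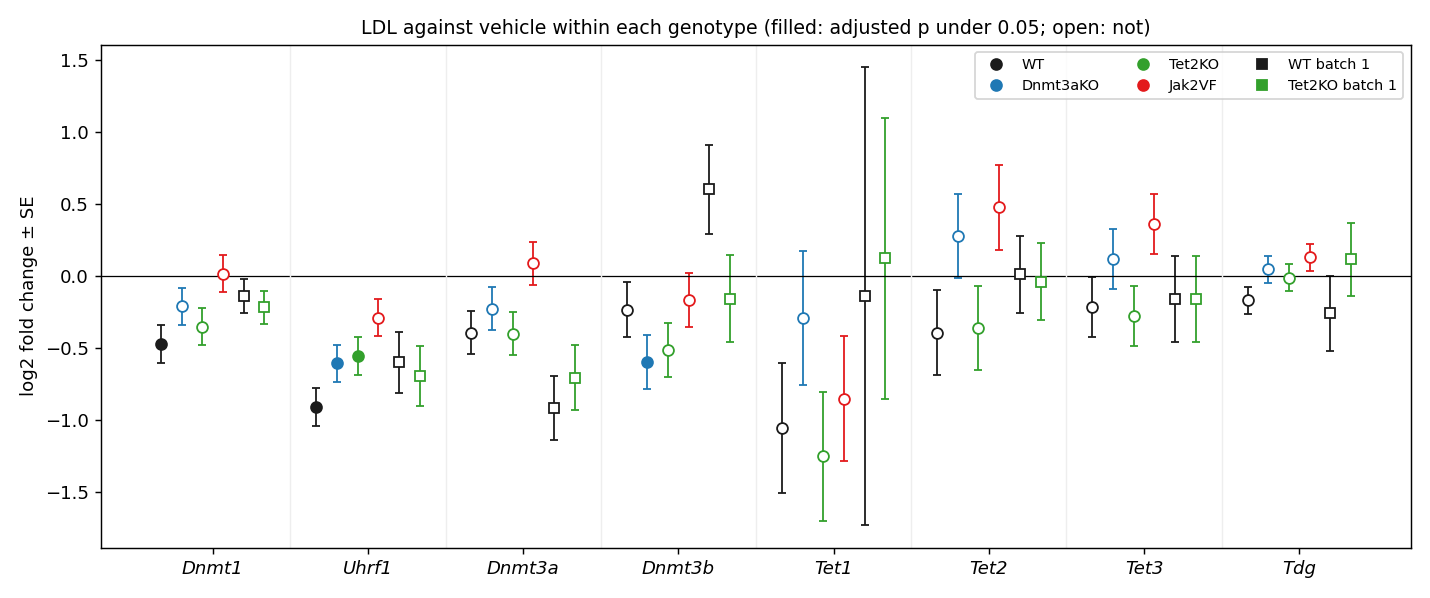
LDL against vehicle for each member, as log2 fold change with its SE, within 4 genotypes of the main set (circles) and 2 of batch 1 (squares); filled symbols passed the test. Uhrf1 is below 0 in all 6 comparisons and called in WT, Dnmt3aKO and Tet2KO of the main set, and Tdg stays near 0.

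The genes whose group means followed Uhrf1 most closely were Lmnb1, which encodes a lamin of the nuclear envelope, Foxm1, a transcription factor of the cell cycle, and Ncapd2, a condensin subunit. Their root mean square differences from Uhrf1 were 0.046, 0.048 and 0.051 log2 units over the 8 groups of the main set, against a median of 0.42 over the 11768 genes compared. Lmnb1 and Ncapd2 had log2 fold changes with LDL in WT of -0.88 and -0.98, beside -0.91 for Uhrf1, and Foxm1 fell slightly more than these. The 8 groups include WT with vehicle and WT with LDL. Similar changes with LDL in WT therefore follow from how these genes were picked and are no separate result. For Dnmt1 the closest genes were Tbc1d31 (0.042), Rfwd3 (0.045) and Ccdc14 (0.046), where the median over all genes was 0.24.

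Promoter windows are shown for Uhrf1 and Dnmt1 because these were the members with a match to the letters bound by E2F factors, which control genes of DNA replication. RefSeq windows of 300 bases around annotated starts (GRCm38.p6) existed for all 8 members, 13 windows in all, and were searched on both strands for TTTCGCGC and TTTGGCGC. Capitals mark the matches, and the lines below read 5′ to 3′ on the strand of the gene. The Uhrf1 stretch (chr17:56304063-56304312, plus strand) covers the 250 bases before the second of 2 annotated starts and lies in an intron of longer Uhrf1 transcripts in GENCODE. The Dnmt1 stretches (chr9:20952825-20952854 and chr9:20952574-20952603, minus strand) lie in UTR exons of different Dnmt1 transcripts.
Uhrf1: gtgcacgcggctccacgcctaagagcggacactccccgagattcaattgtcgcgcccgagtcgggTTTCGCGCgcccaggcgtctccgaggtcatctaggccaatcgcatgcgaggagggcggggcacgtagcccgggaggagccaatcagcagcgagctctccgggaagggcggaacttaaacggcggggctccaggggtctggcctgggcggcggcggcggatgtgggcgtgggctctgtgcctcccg
Dnmt1: tggtttccgcgcGCGCGAAAaagccggggt
Dnmt1: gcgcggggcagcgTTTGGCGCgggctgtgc
A match was present in 2 of the 13 member windows and in 267 of all 32851 windows (0.813%). Of the 25 DNA replication genes listed below, 20 had a RefSeq window, and 7 of these 20 genes (35.0%) held a match. Of the 12 mitosis genes with a window, 1 held a match (8.33%). The windows differ in CpG content, with a median of 26 CpG in the member windows, 22.5 in those of DNA replication genes, 24.5 in those of mitosis genes and 7 over all windows, and the motifs themselves hold CpG. A match describes letters only, and the absence of one in the other 11 member windows says only that these letters were not found there.

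Within single genotypes of the main set, Dnmt3a did not pass the test of LDL, and Dnmt3b passed it in Dnmt3aKO. Dnmt3a was at 54.6, 65.9 and 71.2 CPM in WT with vehicle and at 39.4, 54.8 and 52.0 CPM with LDL, which overlapped by 1 library (-0.39 ± 0.15, adjusted p = 0.0853). In Tet2KO the vehicle libraries at 63.1, 68.0 and 60.7 CPM all lay above the LDL libraries at 37.8, 55.7 and 51.9 CPM (-0.40 ± 0.15, adjusted p = 0.0719). In Jak2VF, 51.6, 43.7 and 52.4 CPM with LDL lay inside the vehicle range of 39.0 to 56.1 CPM. The genes most like Dnmt3a over the 8 groups were the helicase gene Ddx11, Bcl6b and Spats2l, at root mean square differences of 0.13, 0.13 and 0.15 log2 units.

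Dnmt3b was scarce, at 1.05 to 2.17 CPM. In Dnmt3aKO it was at 2.11, 2.17 and 1.81 CPM with vehicle and at 1.21, 1.05 and 1.73 CPM with LDL, and it fell by 0.60 ± 0.19 (adjusted p = 0.0334). The call ended without any of 4 of the 6 libraries of these groups (adjusted p = 0.104 to 0.208) and with no filter on low counts (adjusted p = 0.123). In the other genotypes Dnmt3b did not pass the test. Its near copy Dnmt3c, 93.9% identical over 1434 aligned bases, had at most 4 counts in any library, so that reads shared with it would be few. Dnmt3b was most like Zfp90, Tmem175 and Mxd4, at differences of 0.051, 0.052 and 0.064 log2 units.

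Dnmt3l, the catalytically inactive partner of the de novo enzymes and no member of the 8, went the other way. It was at 1.91, 1.39 and 0.94 CPM in WT with vehicle and at 5.65, 3.75 and 3.77 CPM with LDL. It rose with LDL by 1.64 ± 0.23 in WT, 1.24 ± 0.22 in Dnmt3aKO, 1.73 ± 0.26 in Tet2KO and 0.68 ± 0.23 in Jak2VF, with adjusted p of 2.48e-05, 0.000278, 5.01e-05 and 0.0423. The groups did not overlap in any of the 4. Dnmt3l shares 67 exon bases with Aire on the other strand, and the strandedness of the counting is not given in the sources used here.

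The TET oxidases showed no shared change with LDL. Tet1 was barely expressed, at 8 to 75 counts per library, and was at 1.19, 1.71 and 1.31 CPM in Tet2KO with vehicle and at 0.289, 0.784 and 0.684 CPM with LDL. That difference of -1.25 ± 0.45 did not pass edgeR's test (adjusted p = 0.0616) and passed that of DESeq2 (adjusted p = 0.0352). In the edgeR fit Tet1 was called lower in the average over genotypes and within 0 of the 4 genotypes. Tet1 was most like Enc1, Hsd17b7 and Etl4, at 0.16, 0.18 and 0.19 log2 units. Tet2 was at 19.9, 28.0 and 32.2 CPM in WT with vehicle and at 15.7, 30.2 and 14.98 CPM with LDL, so that the groups overlapped. Averaged over genotypes its difference was 0.00 ± 0.15, with a 95% interval of -0.29 to 0.29. Tet3, the most abundant of the 3, had an average difference of 0.00 ± 0.10 (interval -0.21 to 0.20). For Tdg the interval was -0.09 to 0.09. The Tet2 interval includes a fall of the size measured for Dnmt1 and Dnmt3a, and the Tdg interval does not.

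Whether LDL acted differently in the mutants was tested as a difference of differences. 0 of the 8 members were called in any of the 3 tests (Dnmt3aKO, Tet2KO or Jak2VF against WT), where 0.432%, 0.103% and 2.47% of all genes were called. At an unadjusted p under 0.05 the counts were 0, 0 and 5, beside 2744, 1428 and 5236 of all 19444 genes. DESeq2 called 0, 0 and 1 member, and its share over all genes is not given here. All 8 members had a difference above 0 in the Jak2VF test, with a median of 0.49 beside -0.02 over all genes. Uhrf1 came closest, at 0.62 ± 0.18 (adjusted p = 0.066), and passed under DESeq2 (adjusted p = 0.0217), without the filter on low counts (0.0184), with each replicate block (0.0369 and 0.0355), and without both Gfap libraries (0.0349). It also passed without WT vehicle 1 (0.0342) and without WT LDL 2 (0.0364), and not with the share of long transcripts as a covariate (0.43 ± 0.17, adjusted p = 0.209). This share, described below, was 29.3% to 35.1% with vehicle and 25.6% to 33.5% with LDL in WT. In Jak2VF it was 27.3% to 35.0% and 31.7% to 36.0%. With the covariate, Dnmt3a changed with LDL by -0.22 ± 0.05 in WT and by -0.16 ± 0.06 in Jak2VF. The part of this share in the common sign of the 8 members was not tested. Without Jak2VF vehicle 3, 5 members were called (Uhrf1, Dnmt1, Dnmt3a, Tet2 and Tet3), and without WT LDL 2, 3 members (Uhrf1, Dnmt1 and Tet2). Each of these libraries had the highest share of long transcripts in its group (35.0% and 33.5%). The shares of all genes called in these fits are not given here, so the counts are no result about the members alone.

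Among genotypes with vehicle, Dnmt3aKO differed from WT in 3 of 8 members, all lower: Dnmt3a, Uhrf1 and Tdg. In this comparison 11.1% of all genes were called and 5.51% were lower. Dnmt3a, the targeted gene, was at 36.6, 32.6 and 32.7 CPM in Dnmt3aKO against 54.6, 65.9 and 71.2 CPM in WT (-0.91 ± 0.15, adjusted p = 0.000199). The origin of the remaining counts was not tested, and counts over the whole gene give no measure of functional message. Uhrf1, at 50.5 to 62.6 CPM against 80.7 to 98.5 CPM, fell by 0.69 ± 0.13 (adjusted p = 0.000783), and Dnmt1 did not pass (-0.26 ± 0.13, adjusted p = 0.26). The comparison shares its WT libraries with the test of LDL in WT. Markers of neutrophils and granules, all 12 with counts, summed to 660 to 715 CPM in Dnmt3aKO and to 178 to 244 CPM in WT with vehicle, and the 7 B cell markers to 105 to 121 and 36.1 to 52.3 CPM. Their part in these differences was not tested.

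With LDL, 4 of 8 members passed the test between Dnmt3aKO and WT, 3 lower and 1 higher, where 17.5% of all genes were called, 9.46% lower and 8.01% higher. Dnmt3a (27.6 to 30.4 against 39.4 to 54.8 CPM) was lower by 0.75 ± 0.15 (adjusted p = 0.0016), and it was called in each of the 14 other settings and left-out libraries. Tdg (-0.41 ± 0.09, adjusted p = 0.00463) and Uhrf1 (-0.39 ± 0.13, adjusted p = 0.0435) were lower. Tet2 was higher, at 39.2, 35.4 and 42.4 CPM against 15.7, 30.2 and 14.98 CPM in WT (0.94 ± 0.30, adjusted p = 0.0346). With LDL the neutrophil and granule markers summed to 480 to 533 CPM in Dnmt3aKO and to 143 to 242 CPM in WT, the B cell markers to 64.1 to 84.4 and 27.1 to 39.2 CPM, and the stromal markers to 9002 to 10092 and 10529 to 12668 CPM, and their part was not tested. The Uhrf1 and Tet2 calls rested on few libraries. Without both Gfap libraries the values were -0.29 ± 0.12 for Uhrf1 (adjusted p = 0.121) and 0.76 ± 0.33 for Tet2 (adjusted p = 0.143). The Tet2 call also ended without any of the Dnmt3aKO LDL libraries (adjusted p = 0.055 to 0.106) without WT LDL 1 (0.15) and without WT LDL 3 (0.141), and with the share of long transcripts as a covariate the difference was 0.49 ± 0.14 (adjusted p = 0.0128). The Uhrf1 call also ended without any Dnmt3aKO LDL library (0.0615 to 0.152) without WT LDL 2 (0.0756), without WT LDL 3 (0.18) and with DESeq2's size factors (0.0567). The Tdg call ended in the fit of the 2 groups alone (adjusted p = 0.0671), where Dnmt3a was the single member called.

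**Figure D3:**
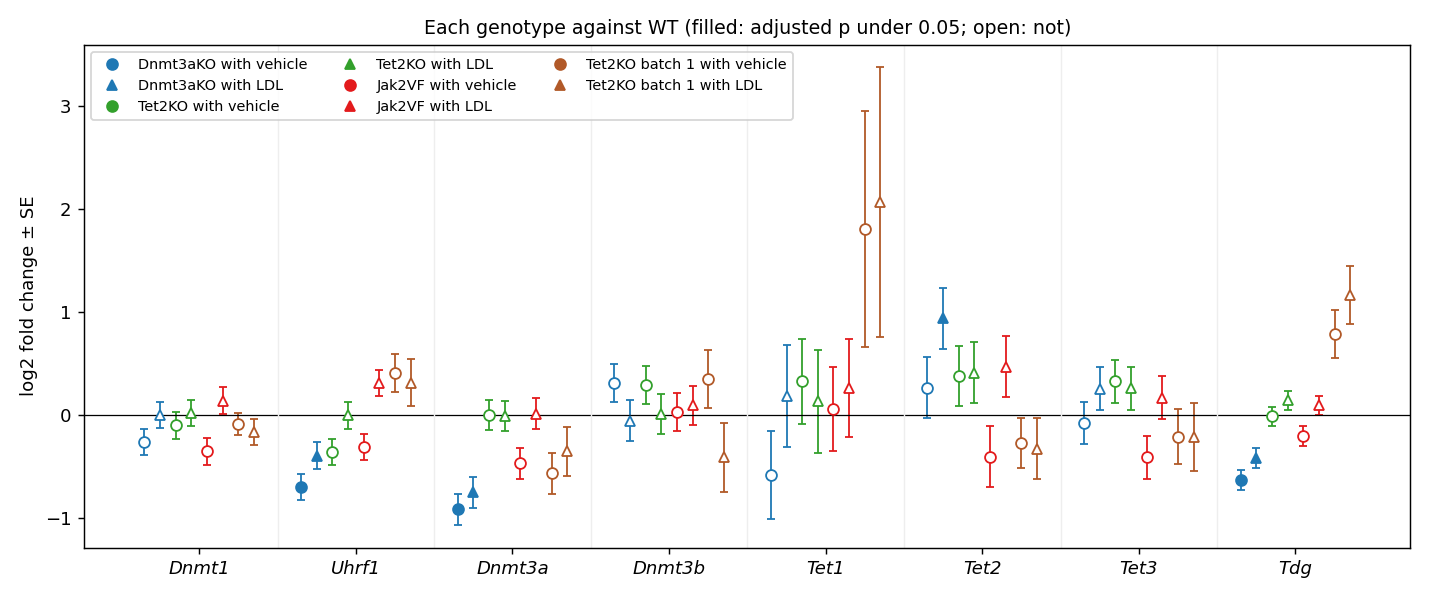
Each genotype against WT for each member, as log2 fold change with its SE, with vehicle (circles) and LDL (triangles); filled symbols passed the test. Only Dnmt3aKO has filled symbols, with Dnmt3a, Uhrf1 and Tdg below 0 under both treatments and Tet2 above 0 with LDL.

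The Tdg difference depended on how near-identical copies were counted. Tdg was at 28.1, 28.0 and 28.7 CPM in Dnmt3aKO with vehicle, against 42.8, 43.7 and 44.7 CPM in WT, a tight and separate pair of groups (-0.63 ± 0.09, adjusted p = 7.26e-05). The Tdg gene (chr10:82629828-82650799, plus strand, GRCm38) has 3 processed pseudogenes with rows in both tables: Gm9855 on chromosome 10 (99.2% identical over 1194 aligned bases), Gm5597 on chromosome 7 (99.3% over 1193) and Tdg-ps on chromosome 15 (98.7% over 2968). Gm9855 moved opposite to Tdg. It had 11.96 to 12.3 CPM in Dnmt3aKO and 5.12 to 6.58 CPM in the WT vehicle libraries (1.04 ± 0.20, adjusted p = 0.000906). With LDL it had 12.5 to 15.6 CPM in Dnmt3aKO and 3.59 to 6.81 CPM in WT (1.57 ± 0.20, adjusted p = 1.28e-05). With vehicle the other copies did not pass the test (Tdg-ps 0.15 ± 0.13, adjusted p = 0.622, and Gm5597 -0.04 ± 0.17, adjusted p = 0.944), and with LDL both were higher (0.65 ± 0.14, adjusted p = 0.00225, and 0.52 ± 0.17, adjusted p = 0.0398). The 3 copies took 42.6% to 45.3% of the family's counts in Dnmt3aKO with vehicle and 24.4% to 29.2% in WT.

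When Tdg and the 3 copies were summed, an alternative added after these values were seen, the Dnmt3aKO libraries with vehicle held 49.0 to 51.6 CPM and the WT libraries 57.8 to 60.4 CPM. The difference of the sum was -0.23 ± 0.09 and did not pass the test (adjusted p = 0.104). With LDL the sums were 53.7 to 58.0 CPM in Dnmt3aKO and 45.2 to 56.0 CPM in WT, and the difference had the other sign (0.11 ± 0.09, adjusted p = 0.37). Reads cannot be assigned between sequences this alike with certainty, and the value for Tdg alone is therefore uncertain. Glt8d2, on the opposite strand, shares a further 367 exon bases with Tdg and stood at 1.30 to 4.74 CPM in the main set.

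**Figure D4:**
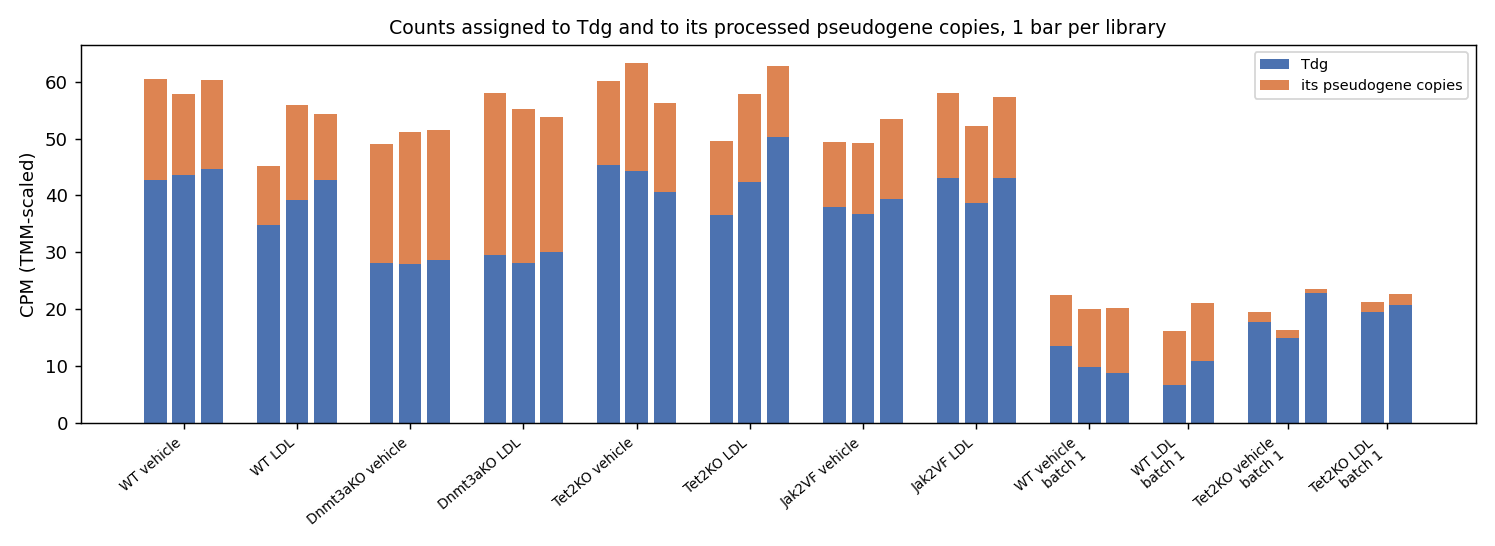
CPM assigned to Tdg (blue) and to its 3 processed pseudogene copies (orange), stacked, with 1 bar per library. The orange part is larger in Dnmt3aKO than in WT of the main set and smaller in Tet2KO than in WT of batch 1, while the heights of the stacks differ less.

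In Tet2KO and Jak2VF of the main set, 0 of 8 members were called against WT under either treatment. For Tet2KO, 5.47% of all genes were called with vehicle and 2.76% with LDL. At an unadjusted p under 0.05 there were 1 and 0 members, beside 3244 and 2371 of all 19444 genes. DESeq2 called 0 under both treatments. Tet2 itself was at 32.8, 38.6 and 32.9 CPM in Tet2KO with vehicle against 19.9, 28.0 and 32.2 CPM in WT (0.38 ± 0.29, with a 95% interval of -0.20 to 0.96). The lowest Tet2KO library lay just above the highest WT library, and a count over the whole gene does not test the deletion of a floxed exon. In batch 1 the sign was the other way, with Tet2 at 24.2, 16.8 and 24.3 CPM in Tet2KO and at 24.1, 26.7 and 27.9 CPM in WT with vehicle, which overlapped (-0.27 ± 0.24, adjusted p = 0.694). Uhrf1 was lower in all Tet2KO vehicle libraries (68.6 to 78.2 CPM) than in WT, and the difference did not pass (-0.36 ± 0.13, adjusted p = 0.129).

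For Jak2VF, 9.55% of all genes were called with vehicle and 9.97% with LDL. At an unadjusted p under 0.05 there were 4 and 1 members, beside 4384 and 5742 of all 19444 genes. DESeq2 called 1 with vehicle and 0 with LDL. Dnmt3a missed the threshold with vehicle, at 39.0, 43.7 and 56.1 CPM against 54.6, 65.9 and 71.2 CPM (-0.47 ± 0.15, adjusted p = 0.0517). It was called by DESeq2 (adjusted p = 0.0354), without the filter on low counts (0.0187) with the replicate block (0.0312) and without WT vehicle 1 (0.0354). Without Jak2VF vehicle 3, the library nearest to WT, Dnmt1 (-0.47 ± 0.14), Dnmt3a (-0.63 ± 0.15) and Tet3 (-0.69 ± 0.20) were called. That library had the highest share of long transcripts in its group (35.0%). In Jak2VF with vehicle the neutrophil and granule markers summed to 565 to 743 CPM, against 178 to 244 CPM in WT, and the stromal markers to 14883 to 18750 CPM, against 12509 to 13483 CPM. The 10 macrophage markers summed to 20443 to 26885 CPM, against 24068 to 29855 CPM in WT, so that these sums overlapped. The macrophage genes Adgre1 and Csf1r differed by -0.67 ± 0.07 and -0.22 ± 0.07 (adjusted p = 1.21e-06 and 0.048 by edgeR). A lower Adgre1 was not particular to Jak2VF, since Adgre1 also fell with LDL in WT (-0.61 ± 0.07). The part of these markers in the Jak2VF differences was not tested.

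Batch 1 gave a second view of WT and Tet2KO at fewer libraries. edgeR called 0 of 8 members in each of its 6 comparisons, where 0%, 0%, 0.271%, 1.89%, 0.536% and 0% of all 15481 genes were called: LDL in WT, LDL in Tet2KO, LDL averaged over both, Tet2KO against WT with vehicle, the same with LDL, and the difference of LDL effects. The members with an unadjusted p under 0.05 numbered 2, 2, 2, 2, 1 and 0, beside 707, 1126, 1662, 2163, 1844 and 236 of all 15481 genes. DESeq2 called 1, 0, 2, 1, 1 and 0 members. Uhrf1 was at 17.1, 23.9 and 22.7 CPM in WT with vehicle and at 12.6 and 15.4 CPM with LDL. In Tet2KO it was at 33.8, 22.0 and 29.1 CPM with vehicle and at 15.9 and 19.1 CPM with LDL. Neither pair of groups overlapped, and the averaged difference was -0.65 ± 0.15 (adjusted p = 0.137 by edgeR and 0.00733 by DESeq2). The main set average of -0.59 was taken over 4 genotypes, Dnmt3aKO and Jak2VF included.

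Dnmt3a had the largest drop of the members with LDL in batch 1. It was at 230, 311 and 253 CPM in WT with vehicle and at 111 and 169 CPM with LDL, and at 219, 171 and 148 CPM in Tet2KO with vehicle and 119 and 101 CPM with LDL. The LDL libraries lay below all vehicle libraries of their genotype, with an averaged difference of -0.81 ± 0.16 (adjusted p = 0.0968 by edgeR and 0.00026 by DESeq2). Without Tet2KO vehicle 3, edgeR called it (-0.87 ± 0.15, adjusted p = 0.0337). In the main set the average over 4 genotypes, Dnmt3aKO and Jak2VF included, was -0.23. Dnmt3aos, an antisense transcript that shares 133 exon bases with Dnmt3a, was at 1.83 to 2.35 CPM in WT with vehicle and at 0.552 to 0.742 CPM with LDL in batch 1, and at most 0.361 CPM in the main set. Dnmt1 differed by -0.18 ± 0.08 (adjusted p = 0.503), and Dnmt3b had the opposite sign to the main set in WT (0.60 ± 0.31, adjusted p = 1).

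Tdg was at 13.5, 9.84 and 8.85 CPM in WT with vehicle and at 17.8, 14.9 and 22.9 CPM in Tet2KO of batch 1, with no overlap (0.79 ± 0.23, adjusted p = 0.154). With LDL it was at 6.76 and 10.9 CPM in WT and at 19.5 and 20.7 CPM in Tet2KO (1.16 ± 0.28, adjusted p = 0.143). DESeq2 called both (adjusted p = 0.0308 and 0.00608). Gm9855 and Tdg-ps moved opposite to Tdg with vehicle: Gm9855 was at 6.46 to 7.33 CPM in WT and at 0.154 to 0.842 CPM in Tet2KO with vehicle (-4.14 ± 0.51, adjusted p = 0.00507), and Tdg-ps at 1.28 to 2.95 and 0.0682 to 0.105 CPM (adjusted p = 0.00507). Gm5597 did not pass the test, at -0.49 ± 0.45 (adjusted p = 0.709) for vehicle and 0.35 ± 0.56 (adjusted p = 0.869) for LDL. The 3 copies together took 40% to 56.1% of the family's counts in WT and 2.75% to 8.94% in Tet2KO with vehicle. Summed with its copies, Tdg differed by -0.08 ± 0.15 (adjusted p = 0.887) for vehicle and by 0.23 ± 0.18 (adjusted p = 0.677) for LDL. In the main set, the copies took 24.5% to 30.1% of the family's counts in Tet2KO with vehicle, beside 24.4% to 29.2% in WT. The 8 stromal markers summed to 736 to 3877 CPM in Tet2KO with vehicle of batch 1 and to 494 to 844 CPM in WT, and the 12 neutrophil and granule markers to 18.8 to 49.2 and 90.9 to 113 CPM, and their part in the Tdg difference was not tested.

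The genes that work with the members were followed as lists. Among the 8 maintenance and chromatin partners, 1 rose and 4 fell with LDL in WT: Dnmt3l rose as above, and Lig1, the replication ligase (-0.73 ± 0.08, adjusted p = 1.32e-06), and Cdca7l (-0.76 ± 0.14, adjusted p = 0.000339) were among those that fell. The list had a median of -0.37 against 0 over all genes, of which 14.2% were called and 7.58% were called lower. In Dnmt3aKO against WT with vehicle, 1 rose and 4 fell, including Lig1 (-0.65 ± 0.08) and the sliding clamp gene Pcna (-0.64 ± 0.10). There, 11.1% of all genes were called and 5.51% were called lower. In Tet2KO and in Jak2VF against WT with vehicle, 3 and 4 fell and 0 rose, again with Lig1 (-0.47 ± 0.08 and -0.40 ± 0.08) and Pcna (-0.57 ± 0.10 and -0.45 ± 0.10). Of all genes, 5.47% and 9.55% were called there in either direction.

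Of 13 base excision repair partners, 0 rose and 6 fell in the LDL average, where 18.5% of all genes were called lower. The glycosylase genes Neil3 (-1.10 ± 0.07, adjusted p = 8.3e-11) and Neil2 (-0.83 ± 0.08, adjusted p = 2.12e-08) and the sensor Parp1 (-0.44 ± 0.04, adjusted p = 3.59e-08) led them, and the median of the list was -0.03. In Dnmt3aKO against WT with vehicle, 3 of 13 fell, with Neil3 at -1.01 ± 0.14, where 5.51% of all genes were called lower.

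Of 12 partners and cofactor enzymes of the TET oxidases, 3 rose and 5 fell in the LDL average, with a median of -0.04. Over all genes 34.5% were called in this average, and 18.5% were called lower. Idh1, the cytosolic isocitrate dehydrogenase that makes 2-oxoglutarate, rose by 0.72 ± 0.05 (adjusted p = 4.88e-11), and its mitochondrial counterpart Idh2 fell by 0.42 ± 0.04 (adjusted p = 7.04e-08). Both passed with the same signs in WT (0.70 ± 0.09 and -0.35 ± 0.09) and in Jak2VF (0.73 ± 0.09 and -0.52 ± 0.09).

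Among 10 methyl-CpG binding proteins 1 rose and 1 fell in the LDL average: Mbd2 (0.16 ± 0.04) and the glycosylase gene Mbd4 (-0.38 ± 0.10). Of 13 tested genes of the methyl donor cycle, 1 rose (Mtrr, 0.21 ± 0.06) and 2 fell (Shmt1, -0.22 ± 0.05, and Ahcy, -0.21 ± 0.07). Both lists thus had a smaller share of called genes than the 34.5% of all genes called in this average. In Dnmt3aKO against WT with vehicle, 3 of the 13 fell, Mthfd2 (-0.61 ± 0.11), Ahcy (-0.49 ± 0.14) and Mthfd1 (-0.32 ± 0.10), and 0 rose. There, 5.51% of all genes were called lower.

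DNA replication genes were measured beside the members because Dnmt1 and Uhrf1 act at the replication fork. Of 25, 0 rose and 21 fell with LDL in WT, with a median of -0.55, and 23 fell in the LDL average. The shares of all genes called lower were 7.58% in WT and 18.5% in the average. Mcm6 (-0.64 ± 0.08) and Rrm1 (-0.66 ± 0.09) were examples in WT. Their summed level was 1540 to 1612 CPM in WT with vehicle, 994 to 1110 CPM in WT with LDL and 997 to 1090 CPM in Dnmt3aKO with vehicle. With LDL, 15 of the 25 fell for Dnmt3aKO, 3 for Tet2KO and 6 for Jak2VF, beside 8.96%, 8.21% and 9.72% of all genes. Against WT with vehicle, 22 of the 25 fell for Dnmt3aKO, 10 for Tet2KO and 4 for Jak2VF. Over all genes, 5.51% were called lower for Dnmt3aKO, and 5.47% and 9.55% were called in either direction for Tet2KO and Jak2VF. The groups with the lower sums included those where Uhrf1 was lower, and the part of this list in the differences of Uhrf1 and Dnmt1 was not tested.

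Long transcripts varied between libraries of a group. The share of counts in 5106 protein-coding genes with over 6 kb of exon sequence, members left out, spanned 25.6% to 36.0% over the main set, and 26.4% to 32.7% over batch 1. Within WT with LDL it ran from 25.6% to 33.5%, and within Jak2VF with vehicle from 27.3% to 35.0%. With this share as a covariate, Tet3 changed by 0.09 ± 0.01 log2 units per percentage point (adjusted p = 1.38e-10), Tet2 by 0.12 ± 0.01 (adjusted p = 4.2e-08), Tet1 by 0.18 ± 0.03 (adjusted p = 8.41e-06), Dnmt3a by 0.06 ± 0.01 (adjusted p = 2.2e-09) and Dnmt1 by 0.05 ± 0.01 (adjusted p = 1.29e-05). Of all genes tested, 10460 of 19444 were called for this term. The library with the lowest share was also the lowest for Tet3 and for Dnmt3a in 8 of 8 groups. Batch 1 gave 0.15 ± 0.02 for Tet3 (adjusted p = 0.000912) and 0.12 ± 0.02 for Tet2 (adjusted p = 0.00481).

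**Figure D5:**
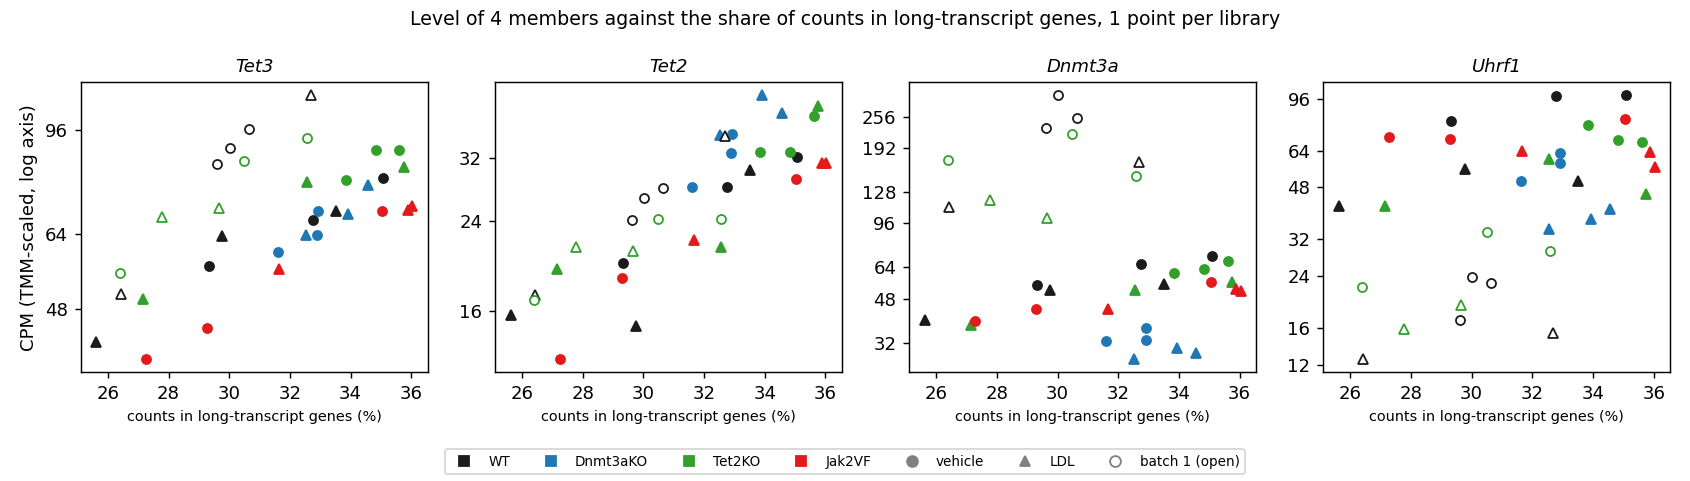
Level of Tet3, Tet2, Dnmt3a and Uhrf1 (CPM, log axis) against the percent of a library's counts in genes with over 6 kb of exon sequence, with 1 point per library, coloured by genotype, closed for the main set and open for batch 1. Tet3 and Tet2 climb along the axis in both sets, and Dnmt3a does so outside Dnmt3aKO in the main set.

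With the covariate, chosen after these values were seen, the difference in Dnmt3a between Jak2VF and WT turned from 0.01 to -0.29 ± 0.06 with LDL (adjusted p = 0.00231) and was called with vehicle (-0.35 ± 0.05, adjusted p = 5.45e-05). Tet3 with LDL turned from 0.17 to -0.27 ± 0.07 (adjusted p = 0.016). Dnmt3a was then called lower with LDL in all 4 genotypes, at -0.22 ± 0.05 in WT, -0.30 ± 0.05 in Dnmt3aKO, -0.23 ± 0.05 in Tet2KO and -0.16 ± 0.06 in Jak2VF. Uhrf1, with 4259 exon bases and a processed pseudogene, Gm5648, at 0.393 to 1.36 CPM, had a slope of 0.03 ± 0.01 (adjusted p = 0.0386), beside 0.02 ± 0.01 for Tdg (adjusted p = 0.0197), and with the covariate it was called lower with LDL in all 4 genotypes, Jak2VF included (-0.40 ± 0.11, adjusted p = 0.014). Technical and biological sources of the share cannot be told apart here.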

How the data were processed

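Polyadenylated RNA was sequenced by a service provider, per the labels' protocols. Gene tables of 34 libraries were deposited. Per the files' values the entries are whole-number counts with unequal totals, and they were used as deposited counts although the tables' names speak of normalisation. Per the submitters' processing notes the build was mm10. For the aligner, the counter and the use of strand, the sources used here give nothing.

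edgeR 4.0.16 (R 4.3.3, limma 3.58.1) was run on each set separately, after keeping genes with at least 10 counts in 3 libraries (main set, 19444 genes) or 2 libraries (batch 1, 15481 genes), with trimmed mean of M values scaling, all groups of a set in 1 quasi-likelihood fit and Benjamini-Hochberg adjustment over all genes tested. The SE is the absolute log2 fold change divided by the square root of F. The procedure was tested on simulated data for LDL in WT. Of simulated 2-fold changes, 71.7% were called in the main set and 37.5% in batch 1. Of 1.5-fold changes, 34.7% and 0% were called. The simulation drew each gene independently and gave 114 calls in the main set (9 false) and 38 in batch 1 (2 false). The data themselves gave 2770 and 0 calls for LDL in WT, so these rates need not hold for the data. Residual degrees of freedom were 16 and 6. Alternatives were DESeq2 1.42.0, its size factors, no filter, the compared groups alone, replicate blocks and each library left out. A covariate for long transcripts, 2 libraries left out together and Tdg summed with its copies were added after seeing the data.

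The members and gene lists were chosen with earlier results of these data known. Named genes were all 8 members, Dnmt3l, the copies of members, up to 3 genes most like each called member, and the listed genes with the smallest adjusted p. Lists were maintenance, methyl-CpG, repair, TET cofactor, methyl donor, DNA replication and mitosis genes. Of the mitosis genes, 14 of 14 were lower in the LDL average, where 18.5% of all genes were called lower. Likeness was the root mean square difference of centred log2 group means. Same-numbered libraries were correlated in every pair (0.592 to 0.785) for Tet2KO against WT with LDL, where the block changed no member's call. Copies were found with BLAST 2.17.0+ in GENCODE vM21 transcripts. Promoters are from RefSeq.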

Additional observations from a re-analysis of the deposited data

How the results depend on the processing

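The numbers of members called moved as follows. The shares of all genes called under these settings are not given here or above. A move can therefore not be told from a general change in the number of calls. With DESeq2, 1 member was called for Jak2VF against WT with vehicle, 2 for LDL in Tet2KO, 1 for the Jak2VF difference of LDL effects and, in batch 1, 2 for the LDL average and 1 each for LDL in WT and Tet2KO against WT with LDL and with vehicle. With no filter on low counts the numbers were 1 for Jak2VF against WT with vehicle, 1 for LDL in Dnmt3aKO, 3 in Tet2KO, 4 in WT and 2 for the Jak2VF difference. With only the compared groups fitted they were 1 for Dnmt3aKO against WT with LDL, and 5, 0 and 1 for LDL in Dnmt3aKO, Tet2KO and WT. With the long-transcript covariate they were 2 and 3 for Jak2VF against WT with LDL and vehicle, 4, 3 and 4 for LDL in Dnmt3aKO, Jak2VF and Tet2KO, 1 for Tet2KO against WT with vehicle and 1 each for batch 1 Tet2KO against WT with LDL and vehicle. With that covariate Dnmt3a reversed for Jak2VF against WT with LDL (-0.29) and for LDL in Jak2VF (-0.16), and Tet3 for Jak2VF against WT with LDL (-0.27). Tdg summed with its copies reversed for Dnmt3aKO against WT with LDL (0.11). Without both Gfap libraries the numbers were 2 for Dnmt3aKO against WT with LDL, 3 for LDL in Tet2KO and 1 for the Jak2VF difference. The cause of these changes was not tested.

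The replicate block by title number gave 2 members for Jak2VF against WT with vehicle, 3 for LDL in Tet2KO and 1 for the Jak2VF difference. The replicate block by description number gave 1 for Jak2VF against WT with vehicle, 1 for LDL in Jak2VF, 2 for LDL in Tet2KO and 1 for the Jak2VF difference. Outside Tet2KO against WT with LDL, the numbers do not show whether same-numbered libraries belong together. Their correlations by title number ran from 0.0247 to 0.718 for Jak2VF against WT with vehicle and from 0.0191 to 0.667 for LDL in WT. For Jak2VF against WT with LDL they ran from -0.707 to 0.116. Leaving out 1 library gave 2 to 3 members for Dnmt3aKO against WT with LDL, 0 to 1 and 0 to 3 for Jak2VF against WT with LDL and vehicle, 1 to 2, 0 to 1, 1 to 3 and 1 to 3 for LDL in Dnmt3aKO, Jak2VF, Tet2KO and WT, 0 to 5 for the Jak2VF difference and 0 to 1 for the batch 1 LDL average. Other counts stayed within 1.5 times. Tet1 and Dnmt3b rest on few counts, and batch 1 on 2 LDL libraries a group.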
